A study of Mus musculus with 27 samples.

Results

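The Myc, Max and Mxd family of transcription factors was examined in tissues of *Mlx*KO mice: the 3 Myc genes (*Myc*, *Mycl*, *Mycn*), their partner *Max*, and the Max-binding repressors *Mnt*, *Mga*, *Mxd1*, *Mxi1*, *Mxd3* and *Mxd4*. These 10 genes were taken by symbol from a table of 36333 genes, and all 10 were found. The samples were 27 bulk RNA-seq libraries of liver, omental adipose tissue and skeletal muscle, with 4 samples per tissue at 5 months of age and 5 per tissue at 20 months. All mice were male and carried floxed *Mlx* alleles (loxP sites flanking exons 3 and 6; Mlx Flox/Flox crossed to a B6.129 line with the allele Gt(ROSA)26Sortm1(cre/ERT2)Tyj), so that a tamoxifen-activated Cre was driven by the ubiquitous ROSA26 promoter. Every mouse had received tamoxifen at weaning, as 5 daily injections of 75 mg/kg in oil, so the *Mlx* knockout and tamoxifen were shared by both ages. The extent of *Mlx* loss differed by tissue. The paper lists more remaining *Mlx* transcript in skeletal muscle than in liver or adipose tissue, at the younger and the older age. In muscle and in adipose tissue the older values tended to be higher but overlapped the younger ones. The same 4 mice gave all 3 tissues at 5 months. They are called mouse 1 to 4 here, and their values are always listed in that order. The samples at 20 months carried separate numbers in each tissue (liver 16 to 19 and 74, adipose tissue 36 to 40, muscle 56 to 60), and their values are listed in that order too. Their age of 20 months follows the sample titles, whereas the paper's supplement lists samples with matching end digits at a slightly younger age. WT samples were not analysed here, so every comparison is between ages or tissues within *Mlx*KO mice.

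Myc proteins act as dimers with Max, which bind the E box CACGTG and recruit coactivators to genes of ribosome production, metabolism and cell division. Mxd proteins, Mnt and Mga dimerize with the same partner, bind the same letters and bring in corepressors, so that the balance between them and Myc sets the output of shared targets. Mlx heads a parallel arm with the glucose-sensing factors MondoA (*Mlxip*) and ChREBP (*Mlxipl*), and Mxd1, Mxd4 and Mnt can pair with Mlx as well as with Max.

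Each sample held 14384695 to 25673919 reads on genes. Values are given on the deposited scale, which is reads per gene scaled to the sample and not to gene length, so that 3 reads correspond to 0.0703 to 0.242. The 7 family members other than *Mycl*, *Mycn* and *Mxd3* had 68 to 2007 reads in every sample. The tissue labels were checked against marker genes: the 6 hepatocyte markers summed to 49354 to 161502 in liver and to at most 353 elsewhere, the 6 adipocyte markers to 3581 to 6821 in adipose tissue and at most 255 elsewhere, and the 6 muscle fibre markers to 125826 to 163753 in muscle and at most 866 elsewhere. *Mlx* itself, the targeted gene, was still counted in every sample (liver 18.8 to 32.4, adipose 8.19 to 13.95, muscle 7.04 to 11.6), and these reads come from the whole gene, including exons outside the deleted part. A muscle library at 5 months (mouse 2) stood apart for *Myc* and for immediate early genes and is treated beside those results. The p-values below measure the spread between these samples.

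The shared E box also occurs in promoters of the family's own genes. A RefSeq promoter table (GRCm38.p6, 250 bases before to 50 after each start) held 11 promoters for 9 of the 10 genes; *Myc* had no entry. CACGTG was present in 3 of the 11, those of *Max*, *Mnt* and *Mxd4*, against 7.15% of all 32851 promoters in the table, and the related form CACGCG, searched on both strands, in 2, those of *Mga* and *Mycl*, against 9.27%. The GC box GGGCGG, searched on both strands, was in 10 of the 11 promoters, against 35.7% of all. The first base of the motif lay 3 bases before the start in *Max*, 20 in *Mycl*, 21 in *Mga*, 123 in *Mnt* and 219 in *Mxd4*. The 5 promoters are shown because they hold the letters that this family and the Mlx arm both recognize, and because *Mnt*, *Mga* and *Mycl* carry the most stable differences described below; the first 270 bases of each are printed, 5′ to 3′ on the gene's strand, with the motif in capitals (in *Mga* the motif lies on the opposite strand and reads CGCGTG). They are Max at chr12:76962229-76962498 (minus strand), Mnt at chr11:74830674-74830943 (plus), Mxd4 at chr5:34187691-34187960 (minus), Mga at chr2:119896978-119897247 (plus, 24725 bases inside the annotated gene start) and Mycl at chr4:122995681-122995950 (plus). A match of letters is a description and not a binding site.
Max: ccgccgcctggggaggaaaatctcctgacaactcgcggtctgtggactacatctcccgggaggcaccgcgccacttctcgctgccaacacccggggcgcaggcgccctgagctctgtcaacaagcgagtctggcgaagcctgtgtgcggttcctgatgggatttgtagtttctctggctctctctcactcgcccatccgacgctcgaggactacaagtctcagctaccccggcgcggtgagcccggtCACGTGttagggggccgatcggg
Mnt: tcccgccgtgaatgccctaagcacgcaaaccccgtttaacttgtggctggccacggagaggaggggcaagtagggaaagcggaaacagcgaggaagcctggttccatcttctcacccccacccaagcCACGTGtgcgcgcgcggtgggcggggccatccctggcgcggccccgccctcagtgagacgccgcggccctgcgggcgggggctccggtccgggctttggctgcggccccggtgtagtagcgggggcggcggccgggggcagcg
Mxd4: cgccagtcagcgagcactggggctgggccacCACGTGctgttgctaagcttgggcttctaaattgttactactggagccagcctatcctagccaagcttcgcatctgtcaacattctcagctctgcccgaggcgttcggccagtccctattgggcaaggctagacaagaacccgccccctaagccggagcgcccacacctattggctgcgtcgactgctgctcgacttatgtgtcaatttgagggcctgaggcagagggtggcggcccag
Mga: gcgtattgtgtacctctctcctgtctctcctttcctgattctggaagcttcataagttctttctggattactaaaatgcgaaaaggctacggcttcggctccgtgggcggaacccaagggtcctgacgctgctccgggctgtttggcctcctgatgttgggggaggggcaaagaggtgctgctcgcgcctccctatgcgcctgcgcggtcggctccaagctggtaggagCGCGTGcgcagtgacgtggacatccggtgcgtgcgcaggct
Mycl: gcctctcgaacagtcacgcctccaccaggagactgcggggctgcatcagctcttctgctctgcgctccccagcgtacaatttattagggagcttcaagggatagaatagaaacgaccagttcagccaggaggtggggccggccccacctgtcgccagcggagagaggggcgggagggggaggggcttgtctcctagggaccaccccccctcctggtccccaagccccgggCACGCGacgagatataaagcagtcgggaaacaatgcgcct

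Between 5 and 20 months, 8 of 23 tests of a family member in a tissue passed a limma adjusted p of 0.05, and 7 of these 8 were lower at 20 months. The largest number was in skeletal muscle, where *Myc*, *Max*, *Mnt* and *Mxd1* were lower and *Mga* was higher. *Mycl* and *Myc* were lower in adipose tissue, and *Mxi1* was lower in liver. A gene was tested where it reached a value of 1 in at least 4 of the 9 samples of a tissue, which 8 members did in liver, 8 in adipose tissue and 7 in muscle; each of these 23 reached it in all 9 samples, so none was tested through 1 age alone. *Mycn* and *Mxd3* were not tested within any tissue, and *Mycl* was not tested in muscle.

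Set against all genes tested, 1 of 8 members passed in liver, where 19.8% of all genes did, 2 of 8 in adipose tissue, where 19.1% did, and 5 of 7 in muscle, where 19.3% did (4 of 7 lower, against 10.1% of all genes lower, and 1 of 7 higher, against 9.13%). The ages did not overlap for 1 of 8 members in liver (19.1% of all genes), 2 of 8 in adipose tissue (17.4%) and 3 of 7 in muscle (17.3%). The median log2 change of the members tested was -0.12 in liver, -0.22 in adipose tissue and -0.44 in muscle, and that of all genes tested was 0.00, 0.01 and 0.02. Of the 8 differences, 3 passed in all 9 alternative analyses and with each sample left out in turn: *Mycl* in adipose tissue and *Mnt* and *Mga* in muscle. In bulk tissue, fewer cells of a type and less RNA per cell cannot be told apart, here or in any result below.

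**Figure D1:**
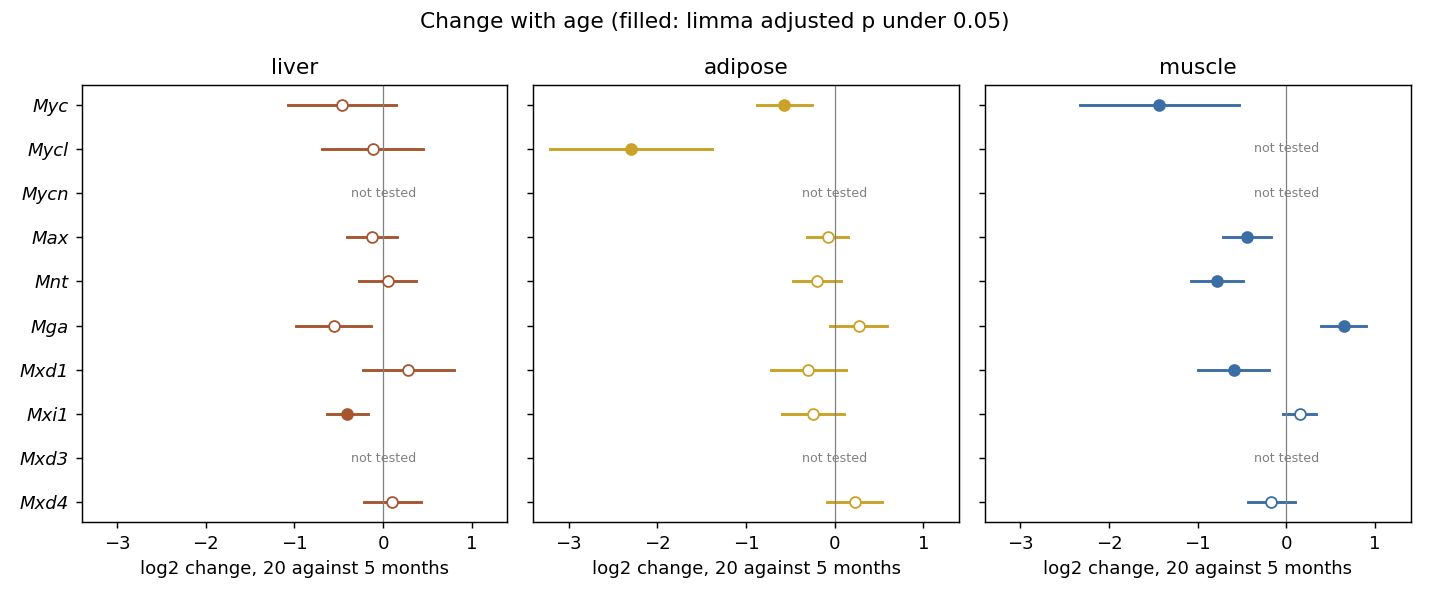
Log2 change of each family member from 5 to 20 months (horizontal axis, log2(value + 1) scale) in liver, adipose tissue and muscle, with 95% confidence intervals as lines and filled points for limma adjusted p under 0.05. Muscle holds 5 of the 8 filled points, and *Mycl* in adipose tissue lies farthest from 0 at -2.29.

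*Myc* (gene ID 17869; chromosome 15, 61985341 to 61990361) encodes the family's broadly acting activator. In skeletal muscle its values at 5 months were 24.7, 66.3, 13.2 and 15.8, and at 20 months they were 15.00, 7.45, 6.29, 10.7 and 5.27. Mouse 2 was the highest sample, and 4 of the 5 older muscles lay below all 4 younger ones. The log2 change was -1.43 (SE 0.41, limma adjusted p = 0.0332), a 2.70-fold lower level, and the exact two-sided permutation test gave p = 0.0238, where 0.00794 is the smallest that 126 splits allow. Without mouse 2 the change was -0.96 (adjusted p = 0.0462). The call was lost without mouse 1 at 5 months (adjusted p = 0.0647) or without sample 57 (0.0666), 58 (0.0747) or 60 (0.0800) at 20 months, and with no filter on low genes (0.0765), and over the 9 alternatives the adjusted p ran from 0.00623 to 0.0765.

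The muscle library with the highest *Myc* also stood apart for immediate early genes, the transcripts that cells induce within minutes of a stimulus. The summed value of 14 such genes in muscle was 1399, 4531, 1074 and 1710 at 5 months and 1338, 579, 510, 827 and 763 at 20 months. Mouse 2, with the highest *Myc*, had the highest sum, and sample 56, the older muscle with the highest *Myc*, had the highest sum of its age. Of the 13 immediate early genes tested in muscle, 8 were lower at 20 months and none was higher (10.1% of all genes were lower), with a median log2 change of -1.03. The number lower was 4 to 9 over the alternatives, with 4 under no filter, and 4 to 10 with each sample left out (6 without mouse 2). The log2 change was -3.42 for *Atf3* (SE 0.73, limma adjusted p = 0.0114), -2.32 for *Btg2* (SE 0.53, 0.0143), -1.76 for *Zfp36* (SE 0.33, 0.00698) and -1.03 for *Ier2* (SE 0.26, 0.0194). The part of these genes' response in the *Myc* difference was not tested.

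**Figure D2:**
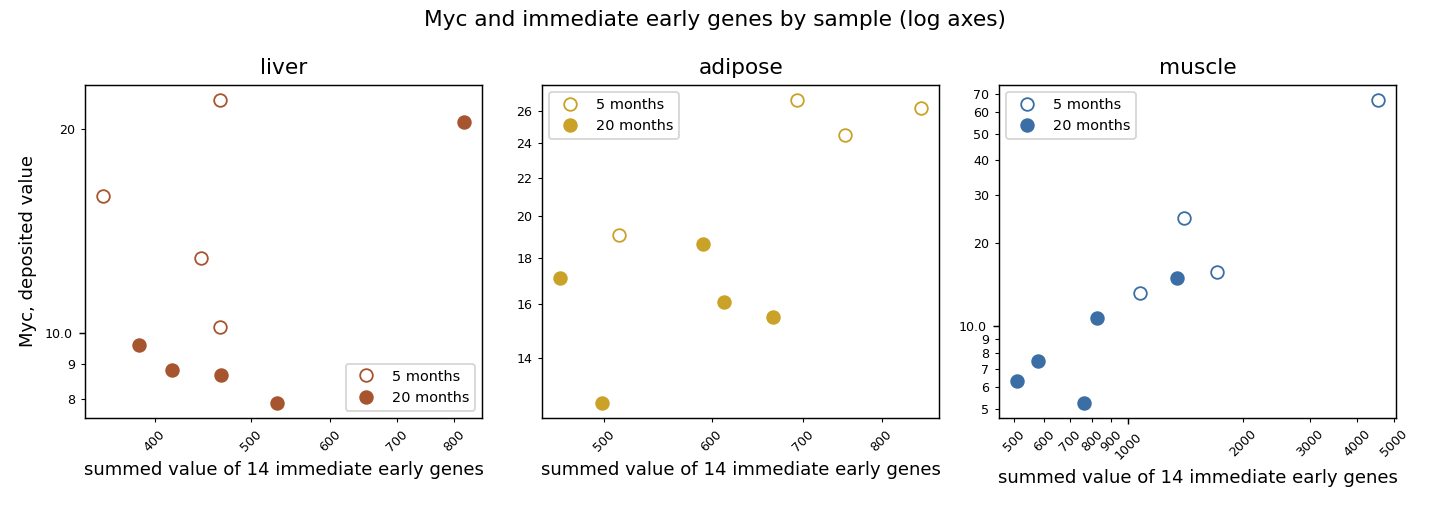
*Myc* (vertical, deposited value) against the summed value of 14 immediate early genes (horizontal) in each sample, on log axes, with open points for 5 months and filled points for 20 months. In muscle the sample at 4531 on the horizontal axis is also the highest for *Myc* at 66.3; in adipose tissue 3 of the 4 younger samples lie above all others for *Myc*, and in liver the older sample at 20.5 has the highest sum.

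In adipose tissue *Myc* was 24.5, 26.8, 26.2 and 19.1 at 5 months and 18.6, 12.5, 16.1, 15.5 and 17.1 at 20 months. All 5 older samples lay below all 4 younger ones, by a gap of less than 1 at the nearest. This was a log2 change of -0.57 (SE 0.14, limma adjusted p = 0.0292, exact permutation p = 0.00794, the smallest possible). The call was lost when the spread was estimated from all 27 samples (adjusted p = 0.202) and without mouse 1 (0.0803) or mouse 2 (0.0781) at 5 months, or sample 37 (0.0579), 38 (0.0543), 39 (0.0647) or 40 (0.0519) at 20 months. Over the 9 alternatives the adjusted p ran from 0.00267 to 0.202.

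In liver *Myc* was 15.9, 22.04, 10.2 and 12.9 at 5 months and 20.5, 8.82, 9.60, 7.89 and 8.67 at 20 months. Sample 16 at 20 months stood apart at 20.5, and the other 4 older livers lay below all younger ones. The log2 change was -0.46 (95% interval -1.07 to 0.14; limma adjusted p = 0.242), and without sample 16 it was -0.69 (adjusted p = 0.0278). The same library also had the highest sum of immediate early genes among the 9 livers (818.5, against 355 to 531 in the other 8). The change of *Myc* did not differ detectably between tissues: the difference, the first tissue less the second here and below, was 0.11 (95% interval -0.88 to 1.09) between liver and adipose tissue, 0.97 (-0.02 to 1.96) between liver and muscle and 0.87 (-0.12 to 1.85) between adipose tissue and muscle, with adjusted p of 0.907, 0.165 and 0.226 in 1 limma fit of all samples.

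*Mycl* (gene ID 16918; chromosome 4, 122995588 to 123002490), the L-Myc paralogue, had the largest difference with age in the family. In adipose tissue it was 25.3, 35.9, 16.1 and 15.8 at 5 months, from 486 to 971 reads, and 9.02, 1.44, 2.02, 4.20 and 4.87 at 20 months, from 37 to 306 reads. The ages did not overlap, and the lowest younger sample lay above the highest older one by more than 6. The log2 change was -2.29 (SE 0.41, limma adjusted p = 0.0128), a 4.91-fold lower level on the log2(value + 1) scale, and the exact permutation test gave p = 0.0159. The adjusted p ran from 2.42e-05 to 0.0250 over the 9 alternatives and from 0.00360 to 0.0464 with each sample left out.

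Markers of other cell types also differed with age in adipose tissue, where 9.75% of all genes were higher and 9.35% lower. The 6 B cell markers summed to 5.54 to 23.8 at 5 months and 19.4 to 206 at 20 months, and all 6 were higher. The 6 mesothelial markers summed to 70.0 to 144 and then to 36.9 to 80.2, with 3 of 6 lower, and the 6 endothelial markers to 598 to 1387 and then to 390 to 701, with 3 of 6 lower. The 6 macrophage markers summed to 316 to 566 and then to 393 to 1444, with 1 of 6 higher, the 6 T cell markers to 7.65 to 16.05 and then to 6.42 to 60.8, with 1 of 6 higher, and the 6 neutrophil markers to 8.20 to 13.8 and then to 11.7 to 17.5, with 1 of the 3 tested higher. None of the 6 adipocyte markers passed limma (3 at an unadjusted p under 0.05, 0 in edgeR, 2 in DESeq2), and none of the 6 fibroblast markers did (3, 1 and 3). Of the 6 epididymis markers, *Defb22* and *Lcn8* were at 0 in all adipose samples, and the sum was 6.19 at most. In the order of the older samples, in which *Mycl* was 9.02, 1.44, 2.02, 4.20 and 4.87, the endothelial sums were 701, 438.5, 390, 636 and 603 and the macrophage sums 393, 1095, 1444, 1029 and 588. The B cell sums were 126, 19.4, 164, 58.3 and 206, and the mesothelial sums 46.4, 56.1, 54.1, 80.2 and 36.95. The sample with the highest *Mycl*, sample 36, had the highest endothelial and the lowest macrophage sum of its age. The part of these cell types in the *Mycl* and *Myc* differences was not tested.

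In liver *Mycl* was 9.16, 15.7, 10.1 and 7.68 at 5 months and 5.70, 10.8, 12.1, 7.04 and 13.7 at 20 months. The ages overlapped, and the log2 change of -0.12 (95% interval -0.69 to 0.46; limma adjusted p = 0.776) turned to 0.05 with scaling that leaves out the 20 most abundant genes. In muscle *Mycl* was 0.548 to 1.23 at 5 months and 0.217 to 0.855 at 20 months, from 3 to 16 reads per sample, which is near the limit of this depth. The change with age in adipose tissue lay below that in liver (difference 2.18, liver less adipose tissue, SE 0.45, limma adjusted p = 0.00248), and this held in all 9 alternatives and all 27 fits that left out 1 sample. It also lay below that in muscle (difference -1.89, adipose tissue less muscle, SE 0.45, adjusted p = 0.00758), but this difference was lost with a pseudocount of 0.1 (0.0679) and in the count tests (edgeR 0.219, DESeq2 0.154), where the alternatives ran from 0.00143 to 0.219. Since *Mycl* was near the depth limit in muscle and was not tested there, nothing is read from the difference between adipose tissue and muscle.

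*Mycn* (gene ID 18109; chromosome 12, 12936093 to 12941836), best known from embryonic tissue, was near the limit of detection. Liver samples held 1 to 24 reads of it, adipose samples 3 to 69 and muscle samples 4 to 23. Its values in adipose tissue were 0.798, 2.55, 0.995 and 1.72 at 5 months and 0.914, 0.117, 0.416, 0.984 and 0.358 at 20 months. In muscle they were 0.307, 0.403, 0.470 and 0.418 and then 0.587, 0.399, 1.23, 0.956 and 1.64. The ages overlapped in both tissues, with an exact permutation p of 0.0635 and 0.0714. Only 5 of the 27 samples reached a value of 1, and these were 2 adipose samples at 5 months, 2 muscles at 20 months and 1 liver at 20 months. The filter on low values was thus passed through groups where *Mycn* was high, and no test of it between tissues is given.

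*Max* (gene ID 17187; chromosome 12, 76937269 to 76962323) encodes the partner without which no Myc, Mxd, Mnt or Mga dimer of this kind forms. In muscle it was 36.9, 45.2, 34.4 and 29.3 at 5 months and 29.1, 26.1, 26.9, 24.2 and 25.01 at 20 months. The ages did not overlap, though the closest samples were 29.3 and 29.1. The log2 change was -0.44 (SE 0.12, limma adjusted p = 0.0286, exact permutation p = 0.00794), a 1.36-fold lower level. The call was lost with no filter on low genes (adjusted p = 0.0506) and without mouse 1 (0.0618) or mouse 2 (0.0655) at 5 months, or sample 57 (0.0568), 58 (0.0566), 59 (0.0564) or 60 (0.0686) at 20 months, and the alternatives ran from 0.00656 to 0.0506.

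In adipose tissue *Max* was 39.1, 44.5, 39.05 and 36.8 and then 33.4, 35.5, 43.0, 40.8 and 35.9, a log2 change of -0.08 whose 95% interval of -0.31 to 0.15 holds 0. In liver it was 25.2, 27.6, 17.96 and 22.1 and then 19.6, 21.1, 23.1, 20.9 and 19.9, a log2 change of -0.13 with an interval of -0.41 to 0.15 (limma adjusted p = 0.583 in adipose tissue and 0.495 in liver). The sign in liver turned (0.04) under scaling that omits the 20 most abundant genes. Neither the change in liver (difference from muscle 0.32, 95% interval -0.02 to 0.65, adjusted p = 0.190) nor that in adipose tissue (0.36, 0.03 to 0.70, adjusted p = 0.134) was shown to differ from the change in muscle.

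*Mnt* (gene ID 17428; chromosome 11, 74830806 to 74845725) encodes a broadly expressed repressor that opposes Myc. In muscle it was 41.5, 30.8, 44.5 and 37.5 at 5 months and 22.7, 26.7, 19.3, 18.5 and 22.4 at 20 months. All 5 older muscles lay below all 4 younger ones. This was a log2 change of -0.78 (SE 0.13, limma adjusted p = 0.00436, exact permutation p = 0.00794), a 1.72-fold lower level, with adjusted p from 1.53e-06 to 0.0118 over the alternatives and from 0.00221 to 0.0143 with each sample left out. *Mnt* was not shown to change in liver, where it was 17.7, 25.6, 23.7 and 24.8 and then 20.96, 22.4, 26.99, 20.05 and 28.6 (log2 change 0.05, 95% interval -0.27 to 0.37, adjusted p = 0.826), or in adipose tissue, where it was 39.3, 39.3, 40.8 and 34.8 and then 33.8, 32.0, 35.2, 40.6 and 26.8 (-0.20, -0.47 to 0.07, adjusted p = 0.237).

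The change of *Mnt* in muscle lay below that in liver (difference 0.83, liver less muscle, SE 0.19, limma adjusted p = 0.00487), which held in all 9 alternatives and all 27 fits that left out 1 sample. It also lay below that in adipose tissue (0.59, adipose tissue less muscle, SE 0.19, 0.0426), which held in 5 of 9 alternatives and 14 of 27 such fits; the largest adjusted p was 0.131, with scaling that left out the 20 most abundant genes. Sequencing depth per muscle sample left 252 to 568 reads on *Mnt*.

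*Mga* (gene ID 29808; chromosome 2, 119872503 to 119970129) encodes the family's largest protein, which carries a T-box domain besides its Max-binding part and scaffolds the polycomb complex PRC1.6. In muscle it rose from 49.7, 40.1, 47.0 and 57.1 at 5 months to 67.4, 88.1, 76.1, 79.97 and 69.7 at 20 months. All 5 older muscles lay above all 4 younger ones. The log2 change was 0.65 (SE 0.12, limma adjusted p = 0.00531, exact permutation p = 0.00794), a 1.57-fold higher level, with adjusted p from 1.96e-05 to 0.0127 over the alternatives and from 0.00459 to 0.0166 with each sample left out. It was the only member that passed the test in the higher direction in any of the 3 tissues.

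In liver *Mga* was 35.2, 48.8, 35.9 and 32.9 at 5 months and 32.0, 21.8, 19.5, 21.4 and 35.7 at 20 months. Among the older livers, 3 lay near 20, sample 16 lay just below the lowest younger sample and sample 74 lay inside the younger range. The log2 change of -0.56 (SE 0.19) missed the threshold in the fit of liver alone (limma adjusted p = 0.0620) and passed it in the fit of all 27 samples (0.0167), without sample 16 (0.0319) and without sample 74 (0.0247); the alternatives ran from 0.0167 to 0.240. In adipose tissue *Mga* was 37.6, 39.3, 30.9 and 37.2 and then 51.1, 42.5, 32.1, 47.0 and 48.7, with 4 of 5 older samples above all younger ones, and the log2 change of 0.27 (95% interval -0.05 to 0.59) had an adjusted p of 0.185.

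The change of *Mga* in liver lay below that in muscle (difference -1.20, SE 0.23, limma adjusted p = 0.00113), in all 9 alternatives and all 27 fits without 1 sample, and below that in adipose tissue (-0.82, SE 0.23, 0.0167), which was lost with scaling that left out the 20 most abundant genes (-0.63, adjusted p = 0.115) and otherwise kept, from an adjusted p of 0.00682. The changes in adipose tissue and muscle were not shown to differ (-0.38, 95% interval -0.85 to 0.09, adjusted p = 0.275). Of 9 other PRC1.6 genes, 3 were higher in muscle at 20 months (9.13% of all genes were higher) and none was lower: *Tfdp1*, the E2F dimer partner (log2 change 0.37, SE 0.08, limma adjusted p = 0.0118), *Yaf2*, a RING1-binding subunit (0.36, SE 0.10, 0.0265), and *E2f6*, the complex's repressive E2F (0.28, SE 0.08, 0.0325). In liver 1 of the 9, *Rybp*, was lower (-0.41, SE 0.11, 0.0246), and in adipose tissue *E2f6* was higher (0.43, SE 0.12, 0.0414) and *Rybp*, the paralogue of *Yaf2*, lower (-0.45, SE 0.14, 0.0489), against 19.8% and 19.1% of all genes called. With each sample left out, *Tfdp1* passed in 9 of 9 fits and *Yaf2* in 4, *E2f6* passed in 2 of 9 in muscle and 1 in adipose tissue, and *Rybp* passed in 3 of 9 in liver and 2 in adipose tissue.

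Markers of other cell types also differed with age in muscle, where 10.1% of all genes were lower and 9.13% higher. The 6 macrophage markers summed to 62.7 to 119 at 5 months and 27.7 to 53.7 at 20 months, with 4 of 6 lower, and the 6 fibroblast markers to 909 to 1274 and then 491 to 854, with 4 of 6 lower. The 6 endothelial markers summed to 466 to 538 and then 366 to 490, with 1 lower, and the neutrophil markers to 3.91 to 31.9 and then 1.14 to 72.2, with none of the 4 tested passing limma, edgeR, DESeq2 or an unadjusted p of 0.05. T and B cell markers were not tested in muscle, where they summed to at most 0.848 and 6.06, and *Cd3g* was at 0 in all muscles at 5 months. None of the 6 muscle fibre markers passed limma (1 at an unadjusted p under 0.05, 1 in edgeR and 1 in DESeq2). The part of these cells in the muscle differences was not tested.

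**Figure D3:**
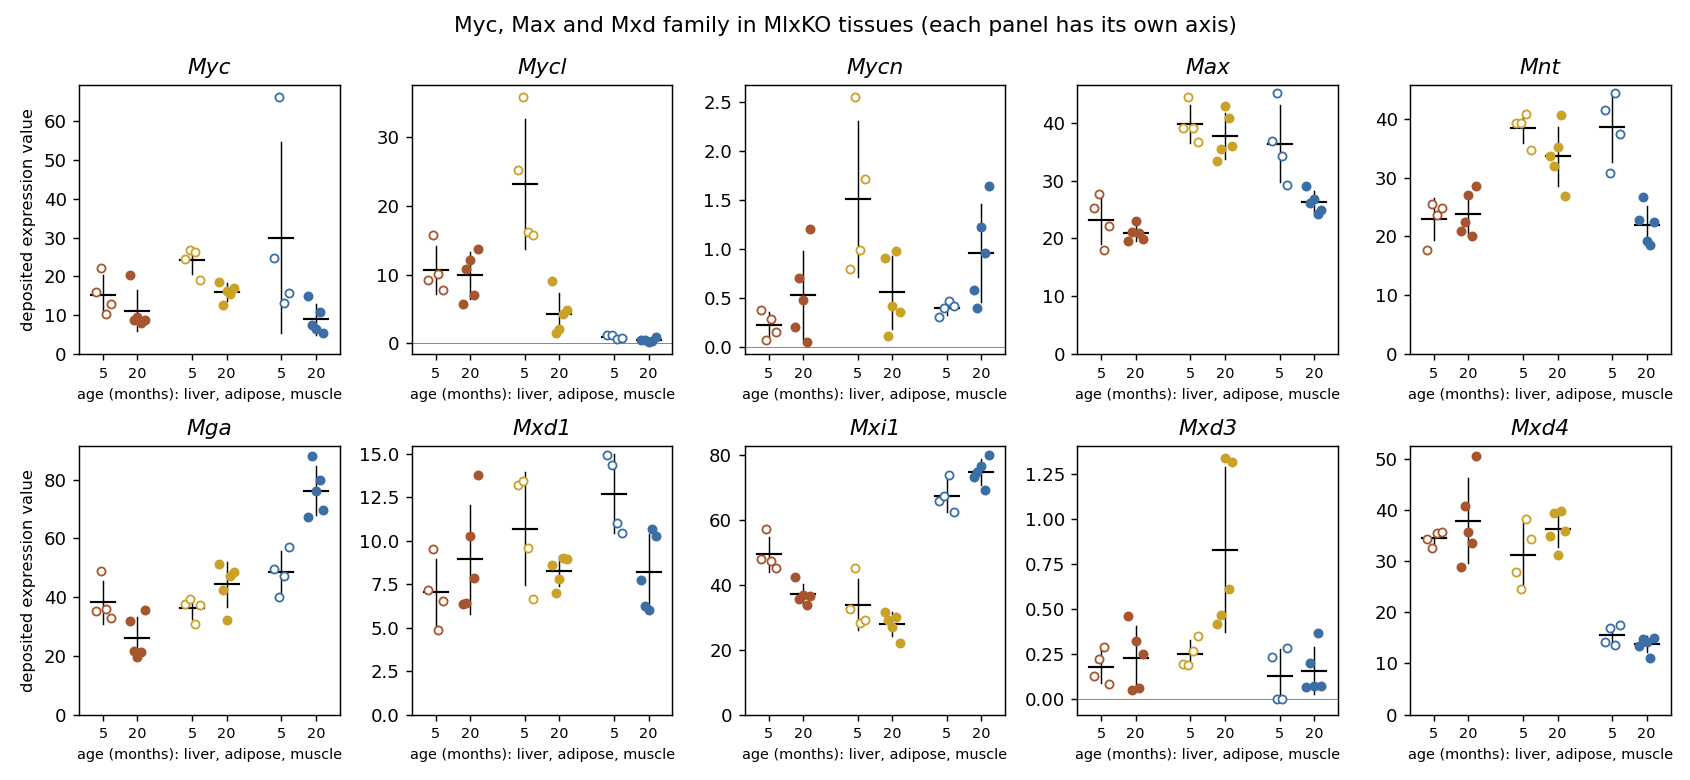
Deposited value of each family member in each of the 27 samples, by tissue (liver brown, adipose tissue yellow, muscle blue) and age (open points 5 months, filled points 20 months), with the mean as a bar and 1 SD as a line; each panel has its own vertical axis from 0. *Mycl* in adipose tissue and *Mnt* and *Mga* in muscle show no overlap between ages, and *Mycn* and *Mxd3* stay below 3 in every sample.

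*Mxd1* (gene ID 17119; chromosome 6, 86647044 to 86669234) encodes Mad1, a repressor associated with cells leaving the cycle. In muscle it was 14.9, 14.4, 11.04 and 10.4 at 5 months and 7.76, 6.25, 6.004, 10.7 and 10.3 at 20 months. A single older sample, 59, lay inside the younger range. On the log2 scale the change was -0.59 (SE 0.18, limma adjusted p = 0.0422, exact permutation p = 0.0476). The call was lost in 4 of 9 alternatives (adjusted p of 0.0901 with no filter, 0.0738 without the 20 most abundant genes in the scaling, 0.0729 in the fit of all samples and 0.0549 in edgeR) and without mouse 1 (0.105) or mouse 2 (0.0921) or sample 56 (0.0745), 57 (0.0904) or 58 (0.0940), and over the alternatives the adjusted p ran from 0.0210 to 0.0901.

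In liver *Mxd1* was 4.85 to 9.53 at 5 months and 6.36 to 13.8 at 20 months (log2 change 0.29, 95% interval -0.23 to 0.80, limma adjusted p = 0.401), and in adipose tissue it was 6.64 to 13.4 and then 6.97 to 9.02 (-0.30, -0.72 to 0.13, adjusted p = 0.259). The adipose change passed only without mouse 4 (-0.49, 0.0390). The difference between liver and muscle was 0.88 (SE 0.31), with an adjusted p of 0.0506 and, with the mouse as a block, of 0.0375, the single call in the family that the block changed.

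*Mxi1* (gene ID 17859; chromosome 19, 53310128 to 53373293), which encodes Mad2, was the member that differed with age in liver. It was 47.9, 57.1, 47.3 and 45.2 at 5 months and 42.5, 35.5, 36.9, 33.9 and 36.5 at 20 months, from 565 to 835 reads. All 5 older livers lay below all 4 younger ones. On the log2 scale it changed by -0.40 (SE 0.10, limma adjusted p = 0.0252, exact permutation p = 0.0159), a 1.32-fold lower level. Leaving the 20 most abundant genes out of the scaling raised the median change of all liver genes by 0.15 and took *Mxi1* to -0.23 (adjusted p = 0.167), which is -0.38 relative to that median. The call was also lost without mouse 1 (0.0540) or mouse 2 (0.0726) or sample 17 (0.0588), 18 (0.0602) or 19 (0.0583), and over the 9 alternatives the adjusted p ran from 0.00387 to 0.167.

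Marker genes also moved in liver: the 6 B cell markers summed to 2.25 to 9.52 at 5 months and 10.4 to 20.8 at 20 months, with 5 of 6 higher, and the 6 fibroblast markers to 203 to 334 and then 298 to 439, with 3 of 6 higher. The hepatocyte markers summed to 106812 to 161502 and then 49354 to 104388, and none of the 6 passed limma (0 at an unadjusted p under 0.05, 0 in edgeR and 1 in DESeq2). The T cell list (1 of 6 tested) and the mesothelial list (5 of 6 tested) each held 1 marker that was higher, the endothelial list (6 of 6 tested) and the adipocyte list (2 of 6 tested) each held 1 that was lower, and none of the 6 macrophage markers (4 at an unadjusted p under 0.05, 1 in edgeR, 5 in DESeq2) or of the 3 neutrophil markers tested (2, 1 and 2) passed limma. Over all genes in liver, 19.8% passed in either direction and 9.79% were lower. The part of these marker shifts in the *Mxi1* difference was not tested.

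In muscle *Mxi1* was 65.7, 67.5, 73.97 and 62.3 at 5 months and 73.4, 74.7, 76.7, 69.2 and 79.96 at 20 months (log2 change 0.15, 95% interval -0.03 to 0.33, limma adjusted p = 0.217), and in adipose tissue it was 28.4 to 45.3 and then 22.1 to 31.6 (-0.25, -0.60 to 0.10, adjusted p = 0.252). The change in liver lay below that in muscle (difference -0.55, SE 0.16, adjusted p = 0.0220), a difference lost with quantile normalization (0.0699), with the 20 most abundant genes left out of the scaling (0.0954) and without liver mouse 2 (0.0548), where the alternatives ran from 0.0159 to 0.0954. Exons of *Mxi1* overlap *Gm10197* on the opposite strand, and the strand used in counting is not given in the sources used here.

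*Mxd4* (gene ID 17122; chromosome 5, 34176580 to 34187710) and *Mxd3* (gene ID 17121; chromosome 13, 55325170 to 55329900) encode the remaining Mxd repressors, the latter linked to dividing cells. *Mxd4* was 32.7 to 35.7 in liver at 5 months and 28.9 to 50.6 at 20 months, 24.6 to 38.3 and then 31.2 to 39.8 in adipose tissue, and 13.7 to 17.5 and then 11.2 to 15.0 in muscle. The ages overlapped in each tissue, and the log2 changes were 0.11, 0.22 and -0.17, with 95% intervals of -0.21 to 0.42, -0.09 to 0.54 and -0.44 to 0.09 (limma adjusted p of 0.626, 0.247 and 0.323).

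*Mxd3* had 0 to 9 reads in liver and muscle samples. In adipose tissue it was 0.191, 0.185, 0.265 and 0.349 at 5 months and 0.413, 0.467, 1.34, 0.609 and 1.31 at 20 months, from 5 to 12 and from 12 to 45 reads. All 5 older samples lay above all 4 younger ones (exact permutation p = 0.0238), but only 2 samples of the series reached the value of 1 needed for the test across genes. Its exons overlap *Prelid1* on the opposite strand. In the order of the older samples, the B cell markers summed to 126, 19.4, 164, 58.3 and 206, against at most 23.8 in the younger adipose samples. The highest sums belonged to the samples with the highest *Mxd3*, but sample 36, with the lowest *Mxd3* of its age, came next. The part of these cells in the *Mxd3* values was not tested.

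Compared between tissues, over the 8 members other than *Mycn* and *Mxd3*, the change with age differed for 2 of 8 between liver and adipose tissue (*Mycl* and *Mga*; 15.6% of all 15572 genes differed), for 3 of 8 between liver and muscle (*Mga*, *Mnt* and *Mxi1*; 17.5%) and for 2 of 8 between adipose tissue and muscle (*Mycl* and *Mnt*; 14.7%). *Mycl* was not tested within muscle (3 to 16 reads), and its difference between adipose tissue and muscle was lost in edgeR and DESeq2. Nothing is read from that call. These comparisons share samples, since each tissue enters 2 of them. The log2 change of *Mga* was 0.65 in muscle, where it passed the threshold, and -0.56 in liver, where it did not (limma adjusted p = 0.0620), with every older muscle above every younger one and 4 of 5 older livers below every younger one.

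Levels of different genes can be compared only per length, so values were divided by the length of each gene's longest coding transcript. On that scale *Max* was first in liver at both ages, in adipose tissue at both ages and in muscle at 5 months, and *Mxi1* was first in muscle at 20 months. In liver at 5 months *Max* had a value of 11.96 ± 2.15 per kb (SD, n = 4), followed by *Mxi1* at 9.80 ± 1.05, *Mxd4* at 8.93 ± 0.362 and *Myc* at 6.53 ± 2.18, and each of these neighbours overlapped the next. In adipose tissue *Max* was separate from all others, at 20.5 ± 1.69 at 5 months and 19.4 ± 2.06 at 20 months (SD, n = 4 and 5), while *Myc*, *Mnt*, *Mxd4* and *Mxi1* overlapped their neighbours at 5 months (10.3, 8.39, 8.08 and 6.71). In muscle *Mxi1* went from 13.4 ± 0.974 to 14.8 ± 0.794 per kb and *Max* from 18.8 ± 3.43 to 13.5 ± 0.972. The ranges of *Mxi1* and *Max* in muscle overlapped at 20 months. *Mxd3* and *Mycn* were the 2 lowest members in liver and adipose tissue at both ages, and *Mycl* joined them in muscle.

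The make-up of the family followed from these levels. The 3 Myc genes held 26.2% ± 3.20 of the summed value per kb in adipose tissue at 5 months (SD, n = 4) and 14.9% ± 3.11 at 20 months (n = 5). In muscle their share was 19.03% ± 11.01 and 8.88% ± 2.98, with the younger samples spread from 10.4% to 34.9%. In liver it was 19.1% ± 3.26 and 17.3% ± 3.53. The 4 Mxd genes held 41.3% ± 3.25 and 42.9% ± 2.74 in liver, 26.1% ± 1.62 and 31.2% ± 1.97 in adipose tissue, and 32.3% ± 5.05 and 42.0% ± 2.76 in muscle. *Mnt* and *Mga* held 15.6% to 21.2% in the 6 groups. With the exon union of each gene in place of its longest coding transcript, an alternative chosen after seeing the data, the Myc share in adipose tissue was 31.8% and 18.8% and in muscle 22.5% and 10.6%. On that length *Mnt* and *Mga* held 21.7% to 28.2% in the 6 groups, and *Max* was no longer first in liver at 5 months (*Mxi1* 7.24 per kb and *Max* 6.45) or in muscle at 5 months (*Myc* 11.03 and *Max* 10.1).

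**Figure D4:**
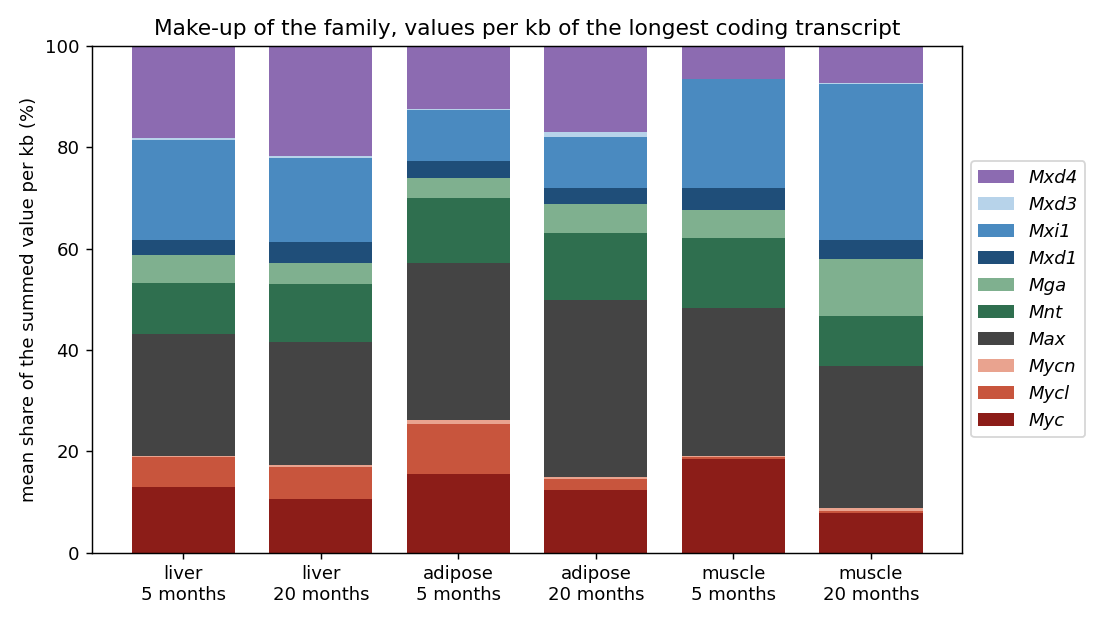
Mean share of each member in the family's summed value per kb of longest coding transcript (vertical axis, percent) for each tissue and age. The Myc genes (reds, at the bottom) take 26.2% of the adipose bar at 5 months and 14.9% at 20 months, and *Mxi1* takes 30.7% of the muscle bar at 20 months.

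Between tissues, most genes differ, and the family was not apart from them: of the same 8 members, 4 to 7 differed in each of the 6 comparisons of tissues (5 between liver and adipose tissue at 5 months, against 76.4% of all genes, 6 between liver and muscle, 72.9%, and 4 between adipose tissue and muscle, 72.8%; at 20 months 5, 74.5%, 5, 77.2%, and 7, 76.0%). The labels name another RNA kit for liver than for adipose tissue and muscle, whereas the study's methods name 1 kit for all samples. If the labels hold, liver and kit cannot be told apart. Leaving the 20 most abundant genes out of the scaling moved the median of all genes by -0.77 between liver and adipose tissue and by 0.56 between adipose tissue and muscle at 5 months, since these genes take 9.56% to 29.2% of the reads of a sample. Differences whose direction held under this scaling are given next, with the exceptions named.

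*Mycl* had the widest range over tissues, from 23.3 ± 9.49 in adipose tissue (SD, n = 4) and 10.7 ± 3.51 in liver to 0.921 ± 0.350 in muscle at 5 months, and the order of adipose tissue and liver turned at 20 months (4.31 ± 2.999 and 9.89 ± 3.40, n = 5). The log2 difference between liver and adipose tissue was -1.02 (SE 0.34, limma adjusted p = 0.00806) at 5 months and 1.15 (SE 0.30, 0.00129) at 20 months, and both directions held in all 9 alternatives, though the difference at 20 months no longer passed without the 20 most abundant genes in the scaling (0.52, adjusted p = 0.149). *Mxd4* was lower in muscle than in liver, by 1.11 at 5 months (SE 0.14, adjusted p = 1.41e-07) and 1.38 at 20 months (SE 0.13, 2.73e-10), and lower than in adipose tissue by 0.95 (SE 0.14, 2.23e-06) and 1.34 (SE 0.13, 6.03e-10). *Mxi1* showed the reverse, with adipose tissue below muscle by a log2 difference of -0.996 at 5 months (SE 0.12, adjusted p = 7.60e-08) and -1.39 at 20 months (SE 0.11, 1.30e-11), and liver below muscle by -0.44 (SE 0.12, 0.00218) and -0.996 (SE 0.11, 6.49e-09). Liver against adipose tissue turned for *Mxi1*, from 0.55 and 0.40 to -0.39 and -0.34, without the 20 most abundant genes.

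*Max* was lowest in liver at both ages, with the mean at 23.2 ± 4.18 in liver, 39.8 ± 3.28 in adipose tissue and 36.4 ± 6.66 in muscle at 5 months (SD, n = 4), and the ranges of adipose tissue and muscle overlapped. The log2 difference between liver and adipose tissue was -0.77 (SE 0.12, limma adjusted p = 3.82e-06) and between liver and muscle -0.63 (SE 0.12, 5.62e-05). *Mga* at 20 months was in the order muscle (76.2 ± 8.29), adipose tissue (44.3 ± 7.53) and liver (26.1 ± 7.27; n = 5), and the log2 difference between liver and muscle was -1.54 (SE 0.15, adjusted p = 8.95e-10). The order of adipose tissue and muscle for *Mga* turned at 5 months with the 20 most abundant genes left out (-0.40 to 0.28).

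The Mlx arm, the family's nearest relatives, was followed beside it. *Mlxipl*, which encodes ChREBP, was higher in liver at 20 months (97.8 ± 16.6, n = 4, and 168.5 ± 25.4, n = 5; log2 change 0.78, SE 0.14, limma adjusted p = 0.00890) and lower in adipose tissue (52.7 ± 9.56 and 31.0 ± 7.62; -0.77, SE 0.20, 0.0330). *Mlxip*, which encodes MondoA, was lower in muscle (270.4 ± 60.4 and 185 ± 35.8; -0.54, SE 0.16, 0.0384), and *Mlx* passed in none of the 3 tissues, with changes of -0.28, 0.19 and 0.13. The *Mlxipl* difference in liver passed in all 9 alternatives and with each sample left out. With a sample left out, that in adipose tissue passed in 5 of 9 fits and that of *Mlxip* in muscle in 3 of 9 (8 and 5 of 9 alternatives).

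The partners through which the family acts are read against all genes, of which 19.8% passed in liver, 19.1% in adipose tissue and 19.3% in muscle. Of 10 genes of the Sin3 and NCoR corepressors used by Mxd and Mnt, 2 were lower in liver at 20 months, *Ncor1* (log2 change -0.53, SE 0.12, limma adjusted p = 0.0154) and *Rbbp7* (-0.47, SE 0.11, 0.0163), 1 was lower in adipose tissue, *Sin3a* (-0.36, SE 0.11, 0.0435), and none passed limma in muscle (3 at an unadjusted p under 0.05, 0 in edgeR and 1 in DESeq2). Of 12 Myc coactivators, 3 were lower in liver, the acetyltransferase *Ep300* (-0.64, SE 0.13, 0.0113), *Ccnt1*, the cyclin of the elongation kinase (-0.87, SE 0.24, 0.0312), and *Ep400* (-0.36, SE 0.11, 0.0468), none passed limma in adipose tissue (3 at an unadjusted p under 0.05, 0 in edgeR and 2 in DESeq2), and in muscle the helicase *Ruvbl2* was higher (0.32, SE 0.10, 0.0489). *Sp1*, a partner at GC boxes, was lower in liver (-0.62, SE 0.13, 0.0131) and muscle (-0.47, SE 0.11, 0.0148), and *Zbtb17* and *Sp3* passed in no tissue. With each sample left out, *Sin3a* passed in 2 of 9 fits, *Ccnt1* in 3, *Ep400* in 2 and *Ruvbl2* in 0, and *Ncor1*, *Rbbp7*, *Ep300* and *Sp1* passed in all 9.

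Among 11 genes that handle Myc protein turnover, muscle had 3 lower and 2 higher of 10 tested at 20 months (10.1% and 9.13% of all genes). With each sample left out, 2 to 5 were lower and 1 to 4 higher. The deubiquitinases *Usp36* (log2 change -0.42, SE 0.08, limma adjusted p = 0.00871), *Usp13* (-0.61, SE 0.12, 0.00908) and *Usp28* (-1.28, SE 0.32, 0.0208) were lower, and the ubiquitin ligase *Pja2* was among the higher ones (0.44, SE 0.10, 0.0126). In liver 3 of 10 were lower (9.79% of all genes), the ligases *Huwe1* (-0.55, SE 0.10, 0.00966) and *Pja2* (-0.58, SE 0.11, 0.0105) and the kinase *Gsk3b* (-0.40, SE 0.11, 0.0354), and in adipose tissue 1 of 11, *Usp36*, was lower (-0.76, SE 0.16, 0.0212; 9.35% of all genes). In liver *Huwe1* and *Pja2* passed in all 9 fits that left out 1 sample and *Gsk3b* in 3. *Usp36* in adipose tissue passed in 7 of 9. In muscle *Usp36*, *Usp13* and *Pja2* passed in all 9 and *Usp28* in 7. Transcript values say nothing of Myc protein, which was not measured here.

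Genes that Myc is known to activate, mostly of ribosome biogenesis, were lower more often than higher at 20 months in each tissue. Of 41 tested, 14 were lower and 0 higher in liver (9.79% of all genes were lower), 11 lower and 2 higher in adipose tissue (9.35% of all genes lower) and 10 lower and 1 higher in muscle (10.1% and 9.13%). Their median log2 change was -0.35, -0.19 and -0.11. In liver the nucleolar helicase *Ddx21* (-0.76, SE 0.14, limma adjusted p = 0.00913) and *Rrp12*, needed for ribosome export (-1.02, SE 0.21, 0.0127), had the smallest adjusted p, in adipose tissue *Wdr43* (-0.65, SE 0.11, 0.0118) and *Nop58* (-0.73, SE 0.13, 0.0138), both of the early processing of ribosomal RNA, and in muscle the PGC-1 relative *Pprc1* (-0.72, SE 0.13, 0.00592) and spermidine synthase, *Srm* (-0.70, SE 0.15, 0.0102). *Mybbp1a*, *Nolc1* and *Rrp12* passed as lower in all 3 tissues, but not in every fit that left out 1 sample. In liver, adipose tissue and muscle, *Mybbp1a* passed in 8, 1 and 4 of 9 such fits. *Nolc1* passed in 5, 2 and 8 of 9, and *Rrp12* in 9, 6 and 5. The higher ones, named after their values were seen, were *Ldha* and *Nme1* in adipose tissue and *Nme1* in muscle. Over the alternatives the number lower ran from 9 to 18 for liver, from 7 to 15 for adipose tissue and from 6 to 12 for muscle. With each sample left out it ran from 2 to 22, from 1 to 15 and from 3 to 12.

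Genes that Myc is known to repress moved in both directions in liver and adipose tissue, whereas in muscle those that passed were lower. Of 7 tested in muscle, 3 were lower and 0 higher, against 10.1% of all genes lower. Their median log2 change there was -0.44, and that of all genes 0.02. In liver 2 of 7 were lower and 1 was higher, where 19.8% of all genes passed. In adipose tissue 1 of 8 was lower and 1 higher, where 19.1% passed. *Cdkn1a*, the p21 cell cycle inhibitor, was lower at 20 months in liver (log2 change -1.50, SE 0.32, limma adjusted p = 0.0136) and muscle (-2.32, SE 0.31, 0.00170). *Gadd45a*, a stress response gene, was higher in liver (1.05, SE 0.29, 0.0291) and adipose tissue (0.98, SE 0.27, 0.0387) and lower in muscle (-1.04, SE 0.15, 0.00221). *Txnip*, which is also a standard target of the Mlx arm, was lower in muscle (-0.44, SE 0.09, 0.00871), *Cdkn1b* was lower in liver (-0.35, SE 0.11, 0.0432) and *Ndrg1* was lower in adipose tissue (-0.89, SE 0.19, 0.0206). With each sample left out, *Cdkn1a*, *Txnip* and *Gadd45a* in muscle passed in all 9 fits. *Ndrg1* passed in 8 of 9, *Gadd45a* in 5 in liver and 3 in adipose tissue, and *Cdkn1b* in 1.

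Of 20 cell cycle genes, 10 were higher in adipose tissue at 20 months (9.75% of all genes were higher) and 1, the cyclin *Ccnd1*, was lower (9.35% of all; log2 change -0.51, SE 0.12, limma adjusted p = 0.0264). They included the replication helicase *Mcm5* (1.26, SE 0.23, 0.0128), *Ccne1* (0.96, SE 0.20, 0.0188) and *Ccnd2* (0.82, SE 0.18, 0.0230). The number higher ranged from 3 to 16 over the alternatives and from 1 to 18 with each sample left out. In liver *Mcm5* (0.80, SE 0.16, 0.0120) and *Top2a* (0.92, SE 0.26, 0.0328) were higher of 14 tested, where 19.8% of all genes passed. In muscle *Aurka* was higher (0.86, SE 0.23, 0.0286) and *Rrm2* lower (-0.77, SE 0.23, 0.0366) of 11 tested, where 19.3% passed. With each sample left out, *Mcm5* in liver passed in 9 of 9 fits, *Aurka* in 6 and *Rrm2* in 3. *Top2a* in liver, with a mean of 0.502 at 5 months, passed in 1 of the 5 fits where it was tested.

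**Figure D5:**
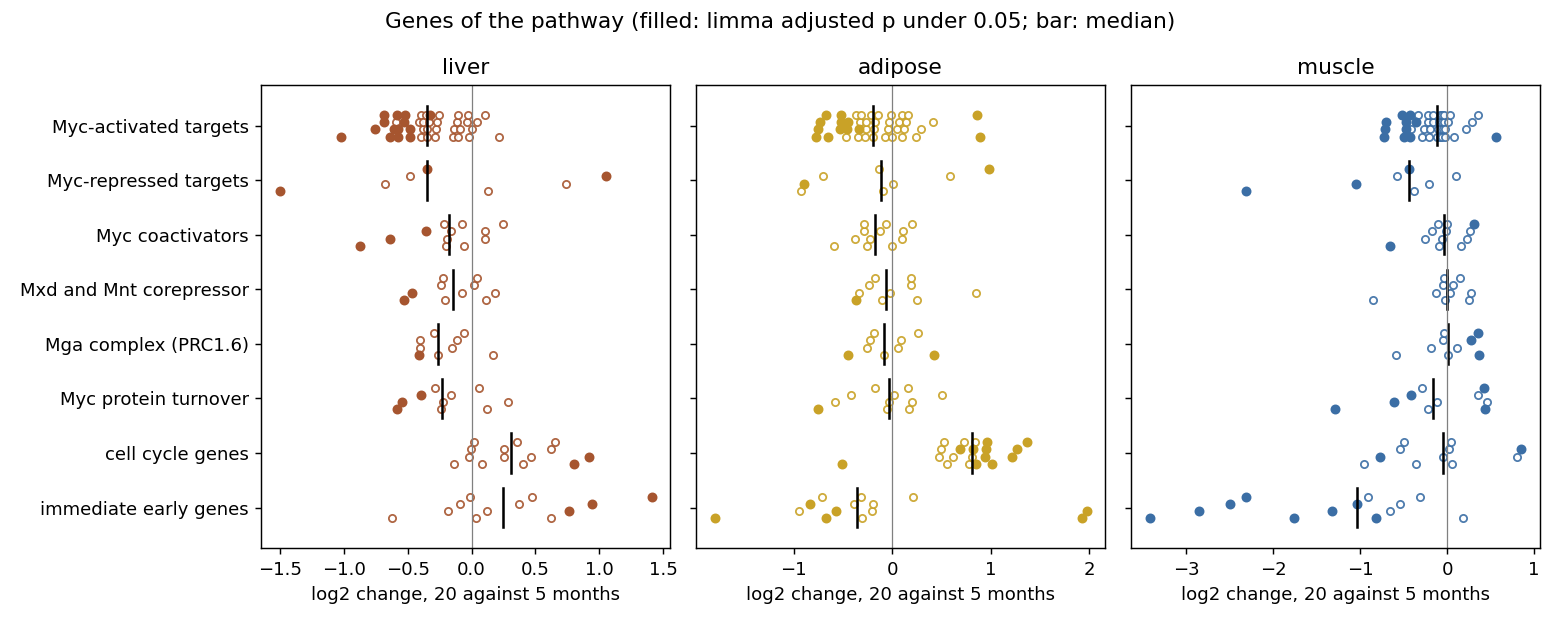
Log2 change from 5 to 20 months (horizontal axis) of each tested gene of 8 lists around the family, in liver, adipose tissue and muscle, with filled points for limma adjusted p under 0.05 and a bar at each list's median. Myc-activated targets lean to the left of 0 in each tissue (medians -0.35, -0.19 and -0.11), cell cycle genes to the right in adipose tissue (0.81) and immediate early genes to the left in muscle (-1.03).

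Outside the muscle, immediate early genes moved in both directions. In liver 3 of 12 were higher at 20 months and none was lower (19.8% of all genes passed in either direction), *Atf3* (log2 change 1.41, SE 0.21, limma adjusted p = 0.00626), *Junb* (0.76, SE 0.21, 0.0301) and *Egr1* (0.94, SE 0.26, 0.0308). The number higher in liver was 0 in the fit of all samples, up to 4 in the other alternatives and 1 to 3 with each sample left out. In adipose tissue 4 of 14 were lower (9.35% of all genes were), among them *Nr4a1* (-1.80, SE 0.20, 0.00417), *Zfp36* (-0.57, SE 0.16, 0.0374) and *Egr1* (-0.83, SE 0.24, 0.0398), and 2 were higher, among them *Egr2* (1.97, SE 0.48, 0.0285), against 9.75% of all genes. The number lower there was 1 with no filter and in 7 of 9 fits that left out 1 sample, and at most 5. *Nr4a1* passed in all 9 alternatives and all 9 of these fits.

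The genes most like each member over the 27 samples were named for the 7 members that reached a value of 1 in every sample, among the 9825 genes that did, by Pearson r of log2(value + 1). Since the samples are 6 groups from 3 tissues, these values mostly reflect tissue levels. *Mxi1* was most like *Klhl12* (r = 0.981), *Lsm14b* (0.964) and *Eif3j1* (0.963), and *Mxd4* most like *Tdrd7* (0.970), *Cgnl1* (0.967) and *Atl3* (0.967). *Mga* was most like *Ubr1* (0.943), *Pds5b* (0.914) and *Cep97* (0.913), and *Max* most like *Osmr* (0.936), *Rab3gap2* (0.931) and *Zmiz1* (0.928). *Myc* was most like *Rnf111* (0.880), *Lrrc58* (0.834) and *Med15* (0.827), *Mnt* most like *Mid1* (0.825), *Snrnp70* (0.817) and *Slc7a8* (0.783), and *Mxd1* most like *Rsrp1* (0.770), *Ntn4* (0.736) and *2810403A07Rik* (0.731). No member of the family was among the 3 closest genes of another.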

How the data were processed

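RNA-seq was read from 1 table of 27 *Mlx*KO libraries and 36333 genes. The authors mapped and counted reads in CLC Genomics Workbench and deposited normalized expression values, a signal in proportion to reads per gene. The mapping annotation and the counting strand are not given in the sources used here. Within each sample, all values were whole multiples (tolerance 0.05) of what 1 read is worth, so reads could be recovered. The planned tests for CPM-like values were kept, and count tests were run as alternatives.

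The main test was limma on log2(value + 1) with Benjamini-Hochberg adjustment over all genes with a value of 1 or more in at least 4 samples, within each tissue for age and over all 27 samples for tissues and for differences between tissues in the change with age. A pseudocount of 1 understates changes of low genes. For single values, exact permutation tests were two-sided. R 4.3.3, limma 3.58.1, edgeR 4.0.16 and DESeq2 1.42.0 were used, and the limma step was tested on simulated data. The 9 alternatives were a pseudocount of 0.1 or 0.5, no filter, median-of-ratios scaling, quantile normalization, scaling without the 20 most abundant genes, edgeR, DESeq2 and, for age, the fit of all 27 samples or, for the others, the mouse as a block, and each sample was left out in turn.

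The 4 mice at 5 months gave all 3 tissues by the labels, so their samples are paired; deviations of samples from the same mouse correlated at r = -0.017 to 0.294 over 12 pairs of samples (mean 0.136). None of the 48 pairs of replicates held identical values. Genes named were all members, the Mlx arm, at most 4 genes per pathway list and tissue by adjusted p, and 3 nearest genes per member. The members and lists were chosen with earlier results of these data known. Promoters came from RefSeq (GRCm38.p6). Counting error alone limits values near 3 reads. Not every gene of the lists is reported here.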

Additional observations from a re-analysis of the deposited data

Results flagged for a closer look

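In the liver at 20 months, *Myc* in sample 16 was 20.5, apart from the other 4 samples at 7.89 to 9.60, and in muscle at 20 months *Mycl* in sample 60 was 0.855, apart from the other 4 at 0.217 to 0.399 and resting on at most 12 reads. These were the 2 of 54 groups of values whose extreme sample lay beyond Dixon's 95% limit, and chance alone gives about 1 in 20.

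The limma test of the difference between tissues in the change with age was read for the 8 members other than *Mycn* and *Mxd3*. The change differed for 2 of 8 between liver and adipose tissue, where 15.6% of all genes differed. It differed for 3 of 8 between liver and muscle (17.5%) and for 2 of 8 between adipose tissue and muscle (14.7%). Each difference is the first tissue less the second. For *Mycl* it was 2.18 between liver and adipose tissue and -1.89 between adipose tissue and muscle, the latter lost in edgeR and DESeq2. For *Mycn* it was 0.95 and -1.12, but this gene passed the filter on low values only through samples of groups where it was high, so nothing is read from these values. For *Mga* it was -0.82 between liver and adipose tissue and -1.20 between liver and muscle. For *Mnt* it was 0.83 between liver and muscle and 0.59 between adipose tissue and muscle, and for *Mxi1* it was -0.55 between liver and muscle.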

How the results depend on the processing

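Of 1818 repeats of a member's test, 1691 kept the direction and the side of the threshold, 98 lost the call, 15 gained it and 14 turned sign; the cause was not tested. The number of members called for age in liver was 0 with scaling without the 20 most abundant genes and 2 in the fit of all samples, and 0 to 3 with each sample left out. It was 1 to 3 in adipose tissue with each sample left out, and in muscle 2 with no filter and 2 to 5 with each sample left out. Members differing in the change with age between adipose tissue and muscle, 3 with *Mycn* counted, numbered 1 with a pseudocount of 0.1, 1 in edgeR and 1 to 4 with each sample left out. Signs turned in liver for *Mycl* (0.0464 with scaling without the 20 most abundant genes, -0.242 to 0.0728 with each sample left out), *Max* (0.0395 with that scaling), *Mnt* (-0.0636 to 0.107 with each sample left out) and *Mxd4* (-0.003 to 0.193). They turned in the difference between liver and adipose tissue for *Myc* (-0.123 to 0.290 with each sample left out) and *Max* (0.141 with that scaling, -0.161 to 0.0373 with each sample left out) and, with that scaling, between liver and adipose tissue for *Mxi1* (-0.389 at 5 months, -0.344 at 20) and between adipose tissue and muscle for *Mga* (0.278 at 5 months). With the mouse as a replicate block, 1 of 81 calls changed (*Mxd1* between liver and muscle, difference 0.88, limma adjusted p = 0.0375), and no other call did. *Mycn*, *Mxd3* and, in muscle, *Mycl* lie near the depth limit.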
